A study of Homo sapiens with 8 samples.

Results

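Heat shock and chaperone genes were described in Saos-2 cells, a human osteosarcoma line that lacks p53, before and after exposure to the compound the labels call Prima. The 33 genes considered were the cytosolic HSP70, HSP110, HSP90, J-domain and small heat shock proteins with their co-chaperones, the HSP60 and HSP10 chaperonins, the heat shock factors HSF1 and HSF2, and the 8 subunits of the CCT chaperonin. A probe set was taken for a gene if the platform annotation mapped it to that gene and to no other. This gave 62 of the 54675 probe sets, for 29 of the 33 genes. HSPA8 and TCP1 stood only on probe sets shared with other genes, and HSF2 and AHSA1 were not analysed here.

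RNA of 8 samples was hybridised to 1 array each. There were 3 untreated samples (replicates 1, 2 and 3), 3 samples treated for 6 h (replicates 1, 2 and 3) and 2 treated for 12 h (replicates 1 and 3), all of them p53-null Saos-2 cells. The labels state neither a dose nor a vehicle, and leave unsaid whether replicates were separate cultures, so the spread behind each p-value may be technical. The study asked how the compound affects the transcriptome of cells without p53.

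When unfolded protein accumulates, HSF1 forms trimers, binds heat shock elements (inverted repeats of GAA and TTC) near its target genes and raises their transcription. The products hold and refold client proteins: J-domain proteins pass clients to HSP70, HSP110 proteins release the bound nucleotide from HSP70, BAG3 couples HSP70 to small heat shock proteins, and HSP90 completes the folding of kinases and receptors. The CCT chaperonin folds newly made actin and tubulin in every cell and is treated here as the constitutive set against which the HSF1-inducible chaperones were read. HSPD1 and HSPE1, although HSF1 targets, encode chaperonins of the mitochondrial matrix.

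Promoters were searched for the heat shock element because it is the sequence through which HSF1 acts. The sequences are those of RefSeq, build GRCh38.p14, 250 bases up to the gene start, and the motif was 3 alternating units spaced by 2 bases, GAANNTTCNNGAA or its other-phase form TTCNNGAANNTTC, read on both strands. The 2 forms overlap where 4 or more units follow each other. A promoter was found for 24 of the 29 genes, all except CRYAB, FKBP4, ST13, CCT6A and HSF1. Counted by gene, the element was in a promoter of 5 of the 15 HSF1-inducible genes in the table and of 0 of the 6 CCT genes, against 152 of all 27305 genes (0.557%). Counted by promoter, since a gene can have several, it was in 5 of 25 and in 0 of 8, against 155 of all 35116 promoters (0.441%). HSP90AB1 has 2 further windows without the element, and HSP90AA1 and HSPD1 have 1 each. In the direction of the gene, all of these lie upstream of the window with the element. The nearest are chr6:44246851-44247100 for HSP90AB1, chr2:197500275-197500524 for HSPD1 and chr14:102139750-102139999 for HSP90AA1. The elements of these genes thus lie past another listed start of the gene. The 5 promoters with the element are given below 5′ to 3′ in the direction of the gene, with the element in capitals. A window of CCT2 and the only window found for CCT5 are shown beside them.
HSP90AA1: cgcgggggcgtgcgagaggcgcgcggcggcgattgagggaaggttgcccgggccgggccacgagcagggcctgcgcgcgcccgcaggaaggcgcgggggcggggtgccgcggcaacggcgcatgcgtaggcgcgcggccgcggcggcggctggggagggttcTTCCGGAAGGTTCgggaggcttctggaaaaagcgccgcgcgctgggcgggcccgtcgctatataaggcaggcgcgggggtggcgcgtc
HSP90AB1: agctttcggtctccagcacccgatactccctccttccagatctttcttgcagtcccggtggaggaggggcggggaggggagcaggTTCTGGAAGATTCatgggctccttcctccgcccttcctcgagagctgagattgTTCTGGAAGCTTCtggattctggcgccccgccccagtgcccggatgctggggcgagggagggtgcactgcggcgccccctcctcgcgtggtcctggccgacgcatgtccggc
HSPD1: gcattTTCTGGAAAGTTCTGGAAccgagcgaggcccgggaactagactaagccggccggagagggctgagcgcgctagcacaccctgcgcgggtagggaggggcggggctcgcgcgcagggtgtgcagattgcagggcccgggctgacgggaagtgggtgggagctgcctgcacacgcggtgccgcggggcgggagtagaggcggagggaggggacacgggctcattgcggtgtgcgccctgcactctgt
HSPA6: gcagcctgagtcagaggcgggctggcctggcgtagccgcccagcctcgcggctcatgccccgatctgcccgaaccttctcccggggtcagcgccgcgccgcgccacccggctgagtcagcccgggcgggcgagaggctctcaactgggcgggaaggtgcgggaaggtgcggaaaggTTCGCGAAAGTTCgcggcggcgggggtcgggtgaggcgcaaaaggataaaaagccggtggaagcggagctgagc
CHORDC1: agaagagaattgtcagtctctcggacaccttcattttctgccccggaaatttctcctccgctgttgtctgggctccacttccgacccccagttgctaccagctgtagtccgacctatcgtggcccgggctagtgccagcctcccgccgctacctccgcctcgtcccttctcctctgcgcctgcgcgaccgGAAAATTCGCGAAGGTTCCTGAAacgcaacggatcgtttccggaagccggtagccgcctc
CCT2: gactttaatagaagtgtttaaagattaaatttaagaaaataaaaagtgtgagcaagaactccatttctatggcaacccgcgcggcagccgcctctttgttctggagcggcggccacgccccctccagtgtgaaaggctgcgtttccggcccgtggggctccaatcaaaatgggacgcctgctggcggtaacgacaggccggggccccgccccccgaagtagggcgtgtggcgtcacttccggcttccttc
CCT5: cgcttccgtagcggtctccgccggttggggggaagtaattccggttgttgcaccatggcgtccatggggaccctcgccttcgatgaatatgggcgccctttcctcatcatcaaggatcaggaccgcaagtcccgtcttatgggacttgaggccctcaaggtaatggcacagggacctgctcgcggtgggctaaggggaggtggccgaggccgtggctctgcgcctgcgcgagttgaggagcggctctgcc
Distances below are to the start that each window precedes, which is not always the first start of the gene. The HSP90AA1 window lies at chr14:102087045-102087294 on the minus strand, and its element starts 88 bases before that start. HSP90AB1, at chr6:44247693-44247942 on the plus strand, has separate elements starting 165 and 112 bases before the start. In HSPD1, at chr2:197499841-197500090 on the minus strand, overlapping matches start 245 and 240 bases before the start. The single element of HSPA6, at chr1:161524290-161524539 on the plus strand, starts 74 bases before the start. CHORDC1, at chr11:90223050-90223299 on the minus strand, carries 3 overlapping matches that start 60, 55 and 50 bases before the start. The CCT2 window shown is chr12:69585209-69585458 on the plus strand and that of CCT5 is chr5:10250287-10250536 on the plus strand. The CCT5 window holds an ATG and reads on as the start of the CCT5 coding sequence, so it lies past an upstream start of the gene. The promoter of that upstream start was not searched, and CCT5 is counted among the 6 CCT genes on this window alone. Promoter windows of DNAJB1, HSPH1, BAG3 and HSPE1 held no exact match, which says only that these letters are not in the windows. A match is a sequence description and not a measured binding site.

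Each value is a MAS5 signal, the authors' summary of a probe set's intensity on a linear scale. Every array had been scaled to the same trimmed mean (100.01), but replicate 2 had median signals of 47.5 at 6 h and 50.9 untreated, where the remaining 6 medians lay between 14.2 and 24.9. The 3′ to 5′ signal ratio of actin control probes, which is higher when RNA is degraded, reached 2.29 in 12 h replicate 1 and 1.73 in 6 h replicate 1, with 1.12 to 1.38 elsewhere. The same ratio of GAPDH control probes varied little, from 0.93 in untreated replicate 1 to 1.04 in 12 h replicate 1. Replicate 2 has no 12 h array in the data used, so these arrays with a high median enter the untreated and 6 h groups but not the 12 h group. The osteoblast-lineage genes RUNX2 (1411 to 2350.0), COL1A1 (2764 to 4801) and SPARC (1319 to 2556) were measured on all arrays, with SP7, ALPL and IBSP also past the intensity filter. Of 7 markers of other cells, PTPRC, EPCAM and PECAM1 passed that filter (EPCAM 26.0 to 245) and CD3E, CDH1, MYOD1 and GFAP did not. In bulk RNA, fewer cells of a type and less RNA per cell cannot be told apart.

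A gene was represented by the brightest of its probe sets, and was tested where its mean log2 signal exceeded the median of all probe sets. Of the 29 genes, 27 were tested among 12063 in all: 15 HSF1-inducible chaperones, 7 CCT subunits, the co-chaperones HSPA4, ST13, PTGES3 and CDC37, and HSF1. HSPA6 and CRYAB were too dim. Differences are log2 differences of the floored signal ± SE from limma (Benjamini-Hochberg adjustment over the 12063 genes, threshold 0.05). Probe sets differ in brightness for reasons unrelated to transcript number, so levels are compared between arrays and never between genes.

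After 12 h, the heat shock genes with the largest differences were BAG3, DNAJB1 and HSPH1, all of them HSF1-inducible: their mean log2 signals were 0.62, 0.53 and 0.50 above the untreated mean. No gene passed the test, within these genes or beyond: 0 of 12063 genes (0%) had an adjusted p under the threshold in the limma fit, and the smallest adjusted p was 1.00. At an unadjusted p under 0.05 there were 74 genes, 33 higher and 41 lower, none of them a chaperone considered here. With the replicate number as a block that count was 262, of which 2 were chaperones, DNAJB1 (unadjusted p = 0.014) and HSPH1 (0.035), each with an adjusted p of 1.00.

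DNAJB1, the J-domain protein that stimulates HSP70, had signals of 429, 458 and 468 on the untreated arrays, 462, 504 and 613 at 6 h and 555 and 765 at 12 h. Both 12 h arrays lay above all 3 untreated arrays, and the log2 difference was 0.53 ± 0.27, or 1.44-fold. Without 12 h replicate 3 it was 0.30. HSPH1, the HSP110 nucleotide exchange factor, had signals of 1302, 1331 and 1722 on the untreated arrays, 2200.1, 1831 and 1759 at 6 h and 1752 and 2352 at 12 h. By the brightest probe set it was the only one of the 27 genes whose 6 h arrays also lay above every untreated array, although the margin was narrow: the lowest 12 h and the lowest 6 h signals were 1752 and 1759, and untreated replicate 3 read 1722. Its 12 h difference was 0.50 ± 0.25 (1.41-fold), but 0.28 without 12 h replicate 3 and 0.13 with the mean of its probe sets. BAG3 had signals of 629, 390.5 and 546 on the untreated arrays, 914, 448 and 549 at 6 h and 765 and 808 at 12 h. The 12 h arrays of BAG3 lay above all untreated arrays, and the difference of 0.62 ± 0.33 (1.54-fold) had an adjusted p of 1.00 in limma, with 0.58 without 12 h replicate 3 and 0.42 without untreated replicate 2.

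**Figure D1:**
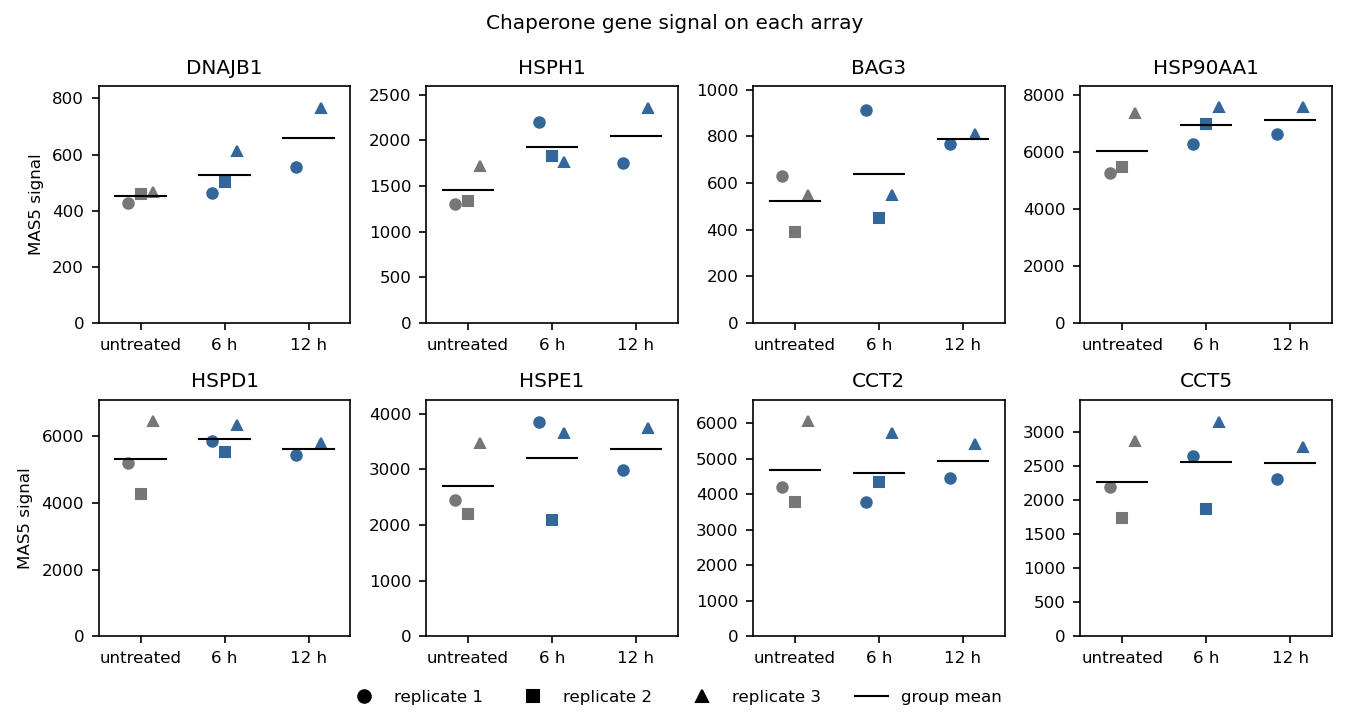
MAS5 signal (linear axis from 0) of 8 chaperone genes on each array, by group (untreated, 6 h, 12 h). Circles, squares and triangles are replicates 1, 2 and 3, and the line is the group mean. Both 12 h arrays lie above the 3 untreated arrays for DNAJB1, HSPH1 and BAG3 (after median centring of the arrays, for BAG3 only), while the groups overlap for HSP90AA1, HSPD1, HSPE1, CCT2 and CCT5.

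A second probe set gave a different picture for part of this. For DNAJB1 it read 283, 292 and 329.5 on the untreated arrays, 282, 296 and 414 at 6 h and 289.8 and 486 at 12 h, so 12 h replicate 1 fell within the untreated range. For HSPH1 it read 390.2, 460.4 and 735 on the untreated arrays, 570.0, 550.4 and 767 at 6 h and 297 and 1044 at 12 h, with 12 h replicate 1 below every untreated array and 12 h replicate 3 above every one. 12 h replicate 1 is the array with the highest actin 3′ to 5′ ratio, whose part in these values was not tested. BAG3 has a single probe set. Across the 18 genes with more than 1 passing probe set, 20 of the 27 other probe sets had the same sign as the gene's brightest at 12 h, 17 of 27 at 6 h, and 14 of 27 for 12 h against 6 h.

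Among the other HSP70-system genes, HSPA4L, an HSP110-family member, differed by 0.32 ± 0.37 at 12 h, and HSPA4, its close relative that is mainly constitutive, by 0.16 ± 0.25. HSPA6, the strictly inducible HSP70 whose promoter element is shown above and whose near-identical pseudogene HSPA7 could share its probes, read 29.3, 14.8 and 12.1 on the untreated arrays, 19.4, 16.5 and 10.7 at 6 h and 13.8 and 16.9 at 12 h, with no group apart from the others. Another HSPA6 probe set, also too dim to be tested, read 2.10, 20.7 and 2.96 on the untreated arrays. It read 13.4, 64.2 and 11.6 at 6 h and 3.26 and 11.7 at 12 h, and its groups overlapped too. Its 6 h difference was 2.03, against -0.21 for the first probe set, so the 2 disagreed at this low signal. The J-domain genes DNAJA1 and DNAJB4 differed by 0.15 ± 0.28 and 0.10 ± 0.31. ST13, which brings HSP70 and HSP90 together, differed by 0.13 ± 0.27.

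HSP90AA1, the inducible cytosolic HSP90, had signals of 5249, 5449 and 7372 on the untreated arrays, 6252, 6968 and 7568 at 6 h and 6626 and 7570.4 at 12 h. The groups overlapped, with untreated replicate 3 brighter than 3 of the 5 treated arrays, and the 12 h difference was 0.25 ± 0.24. HSP90AB1, the isoform made at all times, had signals of 3482, 3506 and 4253 on the untreated arrays, 3506, 3523 and 4837 at 6 h and 3855 and 4678 at 12 h, with a 12 h difference of 0.19 ± 0.24. Its other 2 probe sets, of similar brightness, gave -0.18 and 0.078 at 12 h and -0.11 and -0.082 at 6 h. Both HSP90 genes carry a heat shock element in the windows above. Of the HSP90 co-chaperones, FKBP4, a prolyl isomerase of steroid receptor complexes, differed by 0.29 ± 0.29, and STIP1, the HSP70 to HSP90 adaptor, by 0.048 ± 0.29. CHORDC1 differed by 0.20 ± 0.28, and PTGES3, the p23 co-chaperone, by 0.065 ± 0.22. CDC37, which loads kinases onto HSP90, had signals of 302, 380.2 and 342 on the untreated arrays, 304, 273 and 419 at 6 h and 413 and 394 at 12 h. Both of its 12 h arrays lay above the untreated ones, and the difference was 0.25 ± 0.28.

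HSPD1, the mitochondrial HSP60, had signals of 5209, 4277 and 6474 on the untreated arrays, 5866, 5531 and 6352 at 6 h and 5436 and 5796 at 12 h, and both 12 h arrays lay inside the untreated range, with a 12 h difference of 0.098 ± 0.24. Its HSP10 partner HSPE1, the neighbouring gene, read 2449, 2200.0 and 3462 on the untreated arrays, 3848, 2089 and 3652 at 6 h and 2989.7 and 3735 at 12 h, and differed by 0.33 ± 0.31 at 12 h. The small heat shock protein genes varied widely between replicates. HSPB1 (HSP27) read 67.8, 11.7 and 90.6 on the untreated arrays, 36.0, 13.9 and 109.7 at 6 h and 27.9 and 89.0 at 12 h, and its SE of 0.98 exceeded its 12 h difference of 0.26. HSPB8, the partner of BAG3, read 879.6, 479 and 716 on the untreated arrays, 536, 572 and 726 at 6 h and 647 and 862 at 12 h, a 12 h difference of 0.16 ± 0.31. CRYAB, alpha-B crystallin, was not tested and read 8.25, 86.7 and 13.2 on the untreated arrays, 13.1, 19.2 and 22.5 at 6 h and 6.99 and 13.3 at 12 h, where the brightest value was an untreated array. HSF1 itself was dim, at 28.9, 117 and 28.4 on the untreated arrays, 36.4, 82.8 and 30.1 at 6 h and 38.8 and 27.9 at 12 h. Its replicate 2 arrays were the high ones in both groups that have them, and the 12 h difference, -0.47 ± 0.73, compares 3 untreated arrays with a 12 h group that lacks replicate 2.

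The 12 h differences of the CCT subunits ran from 0.053 (CCT7) to 0.24 (CCT3). CCT2 had signals of 4208, 3775 and 6059 on the untreated arrays, 3773, 4345 and 5716 at 6 h and 4460.5 and 5421 at 12 h. CCT5 read 2187, 1741 and 2856 on the untreated arrays, 2638, 1871 and 3143 at 6 h and 2299 and 2778 at 12 h. In both genes replicate 3 was bright whatever the treatment, and the treated range lay inside the untreated range at 12 h. CCT8, CCT4 and CCT6A differed by 0.17 ± 0.31, 0.16 ± 0.27 and 0.093 ± 0.29.

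**Figure D2:**
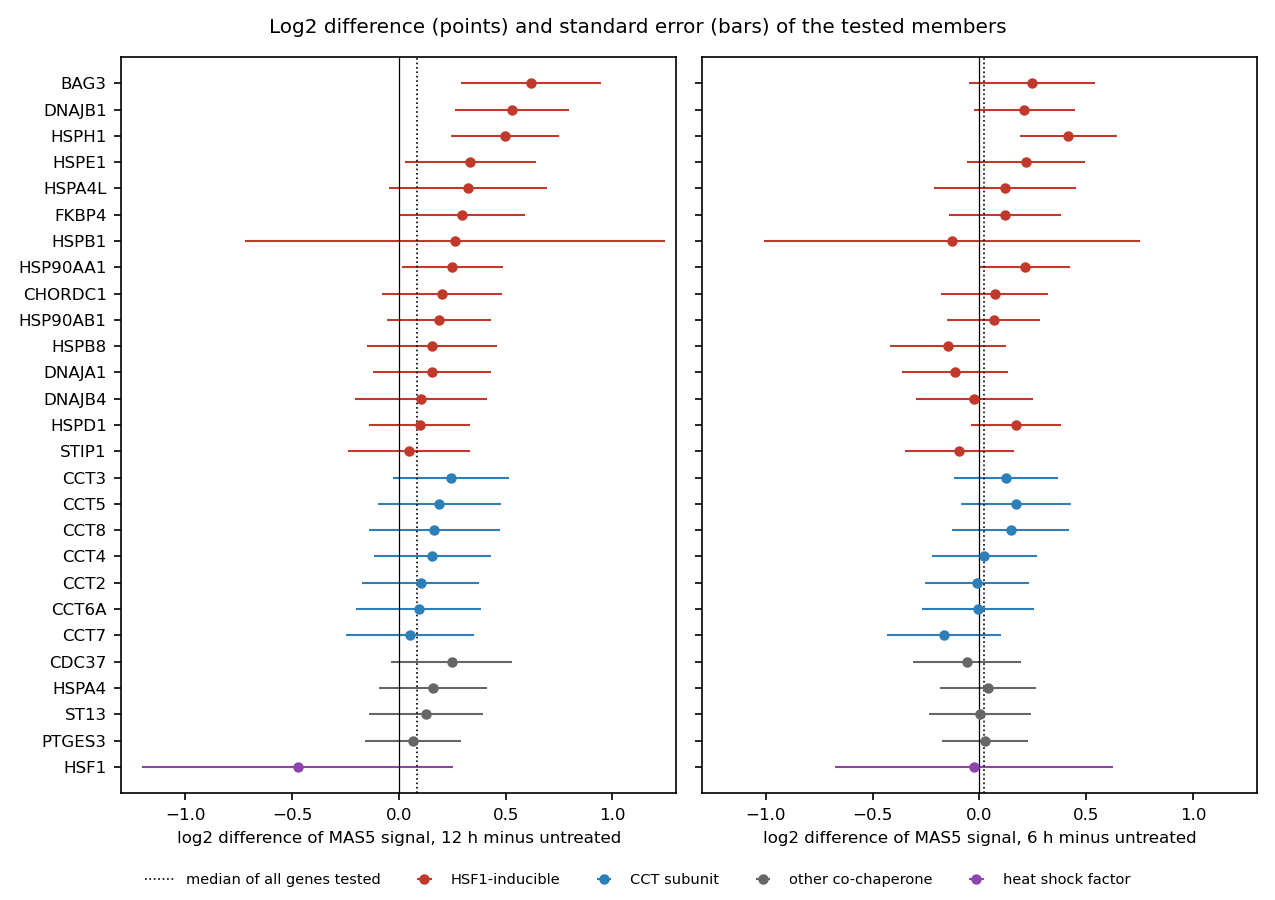
Log2 difference from untreated (points) with its SE (bars) for the 27 genes tested, at 12 h on the left and at 6 h on the right, ordered within each class by the 12 h value. The dotted line is the median of all 12063 genes, and the bars of most genes cross it. BAG3, DNAJB1 and HSPH1 head the 12 h panel.

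Counted without a model, 4 of the 27 genes had both 12 h arrays above all untreated arrays (HSPH1, DNAJB1, BAG3 and CDC37), or 3 of 15 HSF1-inducible and 0 of 7 CCT genes. Over all genes tested, 9.6% met that criterion. These counts use the brightest probe set of each gene. Among the other passing probe sets, those of ST13 (12 h differences 0.46 and 0.24) and another of CCT6A (0.51), of HSPA4L (0.62) and of HSP90AA1 (0.31) also met the criterion. The remaining other passing probe sets did not meet the criterion. The genes that met it were BAG3, HSP90AA1 and HSPH1 after quantile normalization (9.64% of all genes), BAG3 and FKBP4 after median centring of the arrays (12.9%), and BAG3, CDC37 and DNAJB1 with the mean of each gene's probe sets (6.23%). BAG3, whose single probe set makes the last setting no check of it, met the criterion under both other scalings. None of the 27 had both 12 h arrays below all untreated ones, against 4.89% of all genes. All 15 HSF1-inducible genes and all 7 CCT genes had a 12 h difference above 0, as did 59.9% of all genes, but after quantile normalization 11 of 15 and 4 of 7 did. The median difference was 0.25 for the HSF1-inducible genes, 0.16 for the CCT genes and 0.083 for all genes. These medians moved with single arrays. With the replicate number as a block, the medians were 0.13 (12 of 15 above 0), -0.00047 (3 of 7) and 0.045. Without untreated replicate 2 they were 0.14 (9 of 15) for the HSF1-inducible genes, -0.038 (3 of 7) for the CCT genes and 0.036 for all genes. Without 12 h replicate 3, the medians were 0.09 (10 of 15) for the HSF1-inducible genes, -0.039 (3 of 7) for the CCT genes and 0.13 for all genes. Leaving out 12 h replicate 1 gave 0.42 (15 of 15) for the HSF1-inducible genes, 0.27 (7 of 7) for the CCT genes and 0.035 for all genes. Leaving out untreated replicate 3 turned the order of the lists, with 0.33 (15 of 15) for the HSF1-inducible genes, 0.34 (7 of 7) for the CCT genes and 0.095 for all genes. Quantile normalization gave 0.08 (11 of 15) for the HSF1-inducible genes, 0.03 (4 of 7) for the CCT genes and 0.066 for all genes.

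After 6 h, HSPH1 had the largest difference from untreated among the 27 genes, and BAG3 the next. Again 0 of 12063 genes (0%) passed the limma test, with 79 at an unadjusted p under 0.05 (39 higher, 40 lower) and none of the 27 among them. With the replicate block the count was 493, including HSPH1 (unadjusted p = 0.025) and HSP90AA1 (0.036), at adjusted p = 0.831 each. The 6 h and 12 h comparisons use the same 3 untreated arrays, so their values are given side by side and are not independent.

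HSPH1 differed by 0.42 ± 0.23 at 6 h (1.33-fold), with all 3 treated arrays above the untreated ones. By the brightest probe set it was 1 of 27 genes to do so, where 2.03% of all genes did, and 0 of 27 did after quantile normalization, after median centring or with the mean of the probe sets. Among the other passing probe sets, one of FKBP4 (6 h difference 0.38) and one of the CCT subunit CCT5 (0.56) also met this criterion, and those of HSPH1 did not. None of the 27 had all 6 h arrays below the untreated ones (1.51% of all genes). BAG3 differed by 0.25 ± 0.29, a value that was -0.046 without 6 h replicate 1 (914), while 6 h replicates 2 and 3 lay within the untreated range. HSPE1, HSP90AA1 and DNAJB1 differed by 0.22 ± 0.27, 0.21 ± 0.21 and 0.21 ± 0.24. HSPD1 differed by 0.17 ± 0.21 and HSP90AB1 by 0.068 ± 0.22. The lowest 6 h differences belonged to CCT7 (-0.16 ± 0.27) and HSPB8 (-0.15 ± 0.27), and neither separated from the untreated arrays. CCT7 signals were 1324, 1246 and 1729 on the untreated arrays, 1041, 1071 and 1817 at 6 h and 1273 and 1700.4 at 12 h, so its 6 h arrays lay on both sides of the untreated range, and those of HSPB8 all lay inside it.

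Of the remaining inducible genes at 6 h, HSPA4L, FKBP4 and CHORDC1 had values of 0.12 ± 0.33, 0.12 ± 0.26 and 0.071 ± 0.25. DNAJA1, STIP1 and DNAJB4 had values below 0, at -0.11 ± 0.25, -0.094 ± 0.26 and -0.023 ± 0.28, as did HSPB1 at -0.13 ± 0.88. The constitutive HSPA4, PTGES3, ST13 and CDC37 lay between -0.057 (CDC37) and 0.04 (HSPA4). HSF1 differed by -0.025 ± 0.65. CCT5, CCT8 and CCT3 had the highest CCT values, 0.17 ± 0.26, 0.15 ± 0.28 and 0.12 ± 0.24, and CCT4, CCT6A and CCT2 had 0.023, -0.0056 and -0.013. In all, 10 of 15 HSF1-inducible genes and 4 of 7 CCT genes were above 0, against 53.0% of all genes. The median was 0.12 for the HSF1-inducible genes, 0.023 for the CCT genes and 0.022 for all genes. Without 6 h replicate 1 the medians were 0.011 (8 of 15) for the HSF1-inducible genes, 0.078 (6 of 7) for the CCT genes and 0.0022 for all genes, so the CCT median was then the higher. Without untreated replicate 2 they were 0.023 (8 of 15) for the HSF1-inducible genes, -0.12 (1 of 7) for the CCT genes and -0.01 for all genes, and without untreated replicate 3 0.24 (12 of 15) for the HSF1-inducible genes, 0.21 (6 of 7) for the CCT genes and 0.016 for all genes. Without 6 h replicate 2 they were 0.21 (13 of 15) for the HSF1-inducible genes, 0.13 (6 of 7) for the CCT genes and 0.045 for all genes, and without 6 h replicate 3 0.096 (9 of 15) for the HSF1-inducible genes, -0.14 (2 of 7) for the CCT genes and 0.028 for all genes. Quantile normalization gave 0.047 (10 of 15) for the HSF1-inducible genes, -0.013 (3 of 7) for the CCT genes and 0.0078 for all genes.

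Between the 2 treatment times, DNAJB1 and BAG3 had the smallest p among the genes with higher signal at 12 h. DNAJB1 averaged 659.9 ± 149 at 12 h (SD, n = 2) and 526 ± 78.3 at 6 h (SD, n = 3), a difference of 0.32 ± 0.27. BAG3 averaged 786 ± 30.1 at 12 h and 637 ± 245 at 6 h, a difference of 0.37 ± 0.33. HSPH1 differed by 0.08 ± 0.25. Lower at 12 h by the group mean were HSPD1 (-0.074 ± 0.24) and HSF1 (-0.45 ± 0.73). No gene passed the limma test (0 of 12063, 0%), with 88 at an unadjusted p under 0.05 and none of the 27 among them, and 297 with the replicate block, again with none. By the brightest probe set, for none of the 27 did the 2 groups fail to overlap, whereas 7.1% of all genes were higher and 4.5% lower in that sense. Among the other passing probe sets, one each of HSP90AA1 (0.20), CCT6A (0.41) and ST13 (0.42) had both 12 h arrays above every 6 h array, and none had both below. The medians were 0.14 for the HSF1-inducible genes (14 of 15 above 0), 0.11 for the CCT genes (7 of 7) and 0.061 for all genes. With the block they were 0.036 (10 of 15), -0.035 (3 of 7) and 0.023. Leaving out 12 h replicate 3 turned the direction of both lists, with -0.03 (5 of 15) for the HSF1-inducible genes, -0.031 (2 of 7) for the CCT genes and 0.11 for all genes. Without 12 h replicate 1 the medians were 0.41 (13 of 15) for the HSF1-inducible genes, 0.26 (7 of 7) for the CCT genes and 0.016 for all genes. Without 6 h replicate 3 they were 0.24 (14 of 15) for the HSF1-inducible genes, 0.28 (7 of 7) for the CCT genes and 0.056 for all genes, which turned the order of the lists, and without 6 h replicate 2 0.042 (11 of 15) for the HSF1-inducible genes, -0.032 (3 of 7) for the CCT genes and 0.018 for all genes. Quantile normalization gave 0.033 (9 of 15) for the HSF1-inducible genes, -0.00036 (3 of 7) for the CCT genes and 0.055 for all genes.

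Arrays that share replicate number 2 or 3 deviated together, and those numbered 1 only weakly. Each treated array was also set against the untreated array of its number. By the brightest probe set, HSPH1, HSP90AA1, HSP90AB1, DNAJB1 and BAG3 were higher in all 5 treated arrays than in their untreated counterparts. These 5 genes are all on the HSF1-inducible list (5 of 15), and 0 of 7 CCT genes and 0 of 4 constitutive co-chaperones did so. That list includes HSP90AB1, the isoform made at all times, so the split is not one of inducible against constitutive genes throughout. The share over all genes was 7.53%, and the 5 pairs share 3 untreated arrays. The membership depended on the scaling: BAG3, DNAJB1 and HSPH1 after quantile normalization (7.03% of all genes), BAG3, HSPH1, HSP90AA1, HSPE1 and the CCT subunit CCT5 after median centring (9.66%), and BAG3 and DNAJB1 with the mean of the probe sets (5.57%). None of the 27 was lower in all 5 pairs (5.08% of all genes). Pair by pair the sizes varied: HSPH1 differed by 0.76, 0.46 and 0.03 at 6 h and by 0.43 and 0.45 at 12 h. DNAJB1 differed by 0.11, 0.14 and 0.39 at 6 h and by 0.37 and 0.71 at 12 h, so the 12 h value was the larger in both numbers that have one. HSP90AB1 differed by only 0.01 and 0.0071 in the first 2 pairs at 6 h, and 0 of its 2 other probe sets had a 6 h group difference of the same sign. The second probe set of DNAJB1 was lower in pair 1 at 6 h (282 against 283). That of HSPH1 was lower in pair 1 at 12 h (297 against 390.2). In contrast, another probe set of HSP90AA1 and one of the constitutive co-chaperone ST13 were higher in all 5 pairs.

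**Figure D3:**
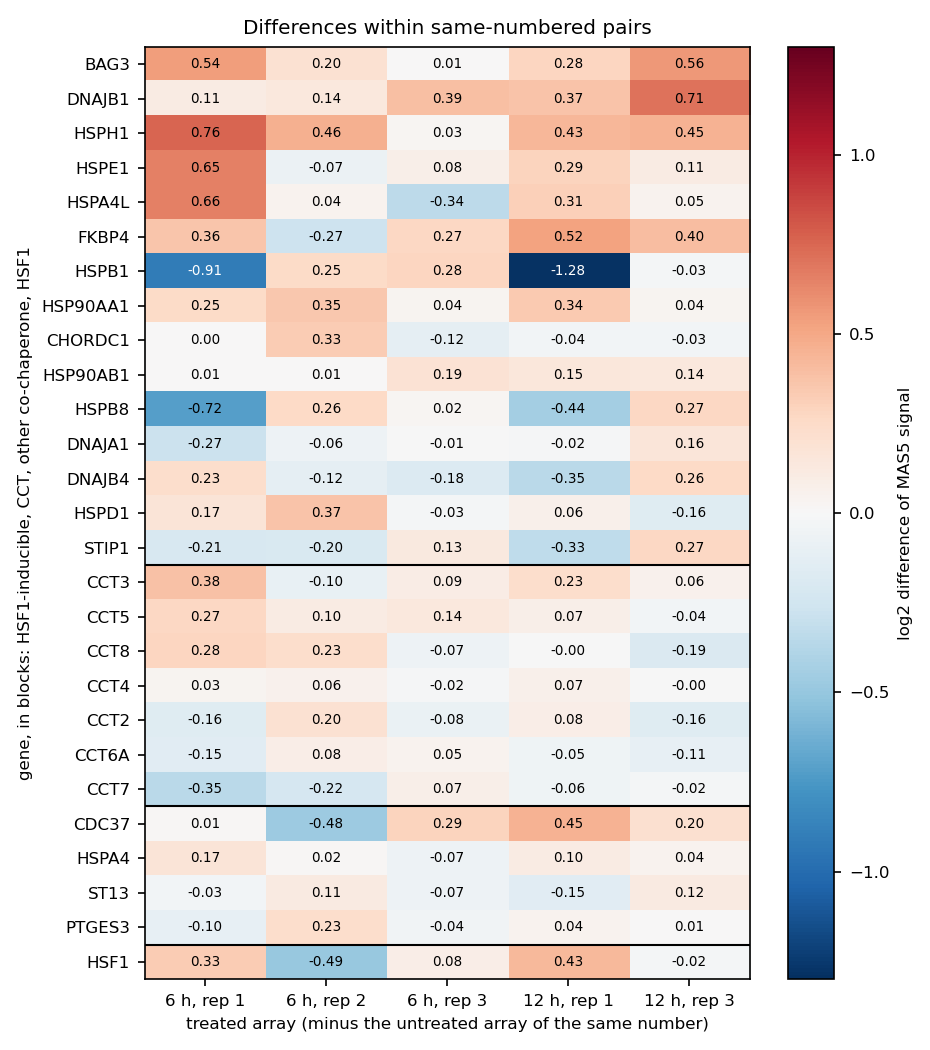
Log2 difference of each treated array from the untreated array of the same replicate number (columns) for the 27 genes (in blocks by class), coloured red above 0 and blue below. BAG3, DNAJB1, HSPH1, HSP90AA1 and HSP90AB1 are above 0 in all 5 columns with the values as scaled by the authors (after quantile normalization, BAG3, DNAJB1 and HSPH1 are), and the CCT block has values on both sides of 0.

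By time, 6 of the 27 genes were higher in all 3 pairs at 6 h, the same 5 and CCT5 (13.6% of all genes), and DNAJA1 alone was lower in all 3 (10.4%). At 12 h, 12 of 27 were higher in both pairs (34% of all genes): 8 of the 15 HSF1-inducible genes, 3 of the 4 constitutive co-chaperones and 1 of the 7 CCT genes, CCT3. HSPB1, CHORDC1, CCT6A, CCT7 and CCT8 were lower in both (5 of 27, against 25% of all genes). For 12 h against 6 h, HSPB8, HSP90AA1, DNAJB1, DNAJA1, FKBP4, CCT4 and PTGES3 were higher in both pairs (7 of 27, against 26% of all genes). HSPB1, HSPD1, CCT3, CCT5 and CCT8 were lower in both (5 of 27, against 23.6%). Counts for 12 h against 6 h were thus close to the background.

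Set against the CCT subunits, the HSF1-inducible genes had the higher median difference in 4 of the 5 pairs. At 6 h the HSF1-inducible medians were 0.17, 0.14 and 0.03 in pairs 1, 2 and 3, and the CCT medians 0.032, 0.082 and 0.048. At 12 h the HSF1-inducible medians were 0.15 and 0.16 in pairs 1 and 3, and the CCT medians 0.068 and -0.04. The exception was pair 3 at 6 h. The mean log2 signal of the 15 HSF1-inducible genes minus that of the 7 CCT genes, a contrast within each array, was -1.38 ± 0.10 in untreated samples (SD, n = 3), -1.33 ± 0.12 at 6 h (n = 3) and -1.26 ± 0.072 at 12 h (n = 2). The array values ran from -1.31 to -1.21 at 12 h and from -1.46 to -1.21 at 6 h, against -1.49 to -1.28 in untreated samples, so the groups overlapped. Within pairs, the contrast was higher by 0.065, 0.061 and 0.024 in the 6 h arrays than in the untreated arrays of their numbers. At 12 h the change was -0.029 in pair 1 and 0.28 in pair 3, so by means the exception was pair 1 at 12 h. The contrast carries the different brightness of the probe sets, so only its change between arrays can be read.

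**Figure D4:**
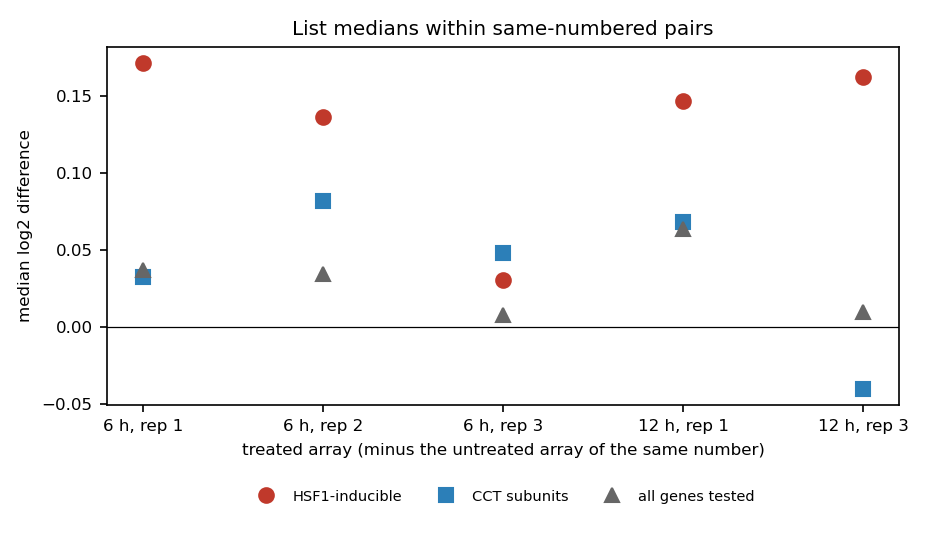
Median log2 difference of the 15 HSF1-inducible genes (circles), the 7 CCT genes (squares) and all 12063 genes (triangles) in each same-numbered pair, treated minus untreated. The circles lie above the squares in every pair except 6 h replicate 3.

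Other genes of the same pathways gave no further calls. Of 63 listed genes (other HSF1 targets, HSP70- and HSP90-system partners, small heat shock proteins and factors, prefoldin and CCT partners), 57 had a probe set of their own and 50 were tested. In limma 0 of 50 passed in either direction at any time, and 0 of 50 at an unadjusted p under 0.05. With the replicate block 0 of 50 passed as well. An unadjusted p under 0.05 was then found for 3 genes at 6 h (UBB, a ubiquitin gene, 0.019; DNAJA2 0.033; CDC37L1 0.047), 2 at 12 h (CLU 0.044; HSPA9 0.0498) and 1 for 12 h against 6 h (CLU 0.034), where each number is the p. The smallest adjusted p was 0.831, 1.00 and 0.972 in these comparisons. UBB is named after its values were seen. HSPA1A and HSPA1B, the main inducible HSP70 genes, were not analysed here. At 12 h, 36 of 50 were above 0 with a median of 0.16, and 27 of 50 with a median of 0.027 under the replicate block. At 6 h, 24 of 50 were above 0 with a median of -0.013, and for 12 h against 6 h, 38 of 50 with a median of 0.17 (30 of 50 and 0.069 under the block). Of the 50, UBB and PPID were higher in all 5 same-numbered pairs, and DNAJA2 and HSBP1 lower in all 5, as were 7.53% (higher) and 5.08% (lower) of all genes.

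The HSF1 targets with the smallest p at 12 h were CLU, an extracellular chaperone, with 0.54 ± 0.37, and ZFAND2A, an arsenite-inducible proteasome factor, with 0.43 ± 0.32. CLU signals were 137, 192 and 210.2 on the untreated arrays, 115, 175 and 253 at 6 h and 227 and 291 at 12 h, and both 12 h arrays lay above the untreated ones. HSPA9, the mitochondrial HSP70, had the opposite sign (-0.58 ± 0.31), with signals of 943, 943 and 1004 on the untreated arrays, 869, 993 and 938 at 6 h and 429.5 and 966 at 12 h. That difference came from 12 h replicate 1, the array with the high actin 3′ to 5′ ratio, while 12 h replicate 3 lay within the untreated range; the part of RNA quality in it was not tested. BAG6, TRAP1 (the mitochondrial HSP90) and PPID had values of 0.39 ± 0.25, 0.34 ± 0.30 and 0.28 ± 0.29 at 12 h, and the small heat shock proteins HSPB7 and HSPB3 0.38 ± 0.33 and 0.38 ± 0.46. The prefoldin subunit PFDN4 and the phosducin-like CCT partner PDCL had 0.22 ± 0.25 and 0.28 ± 0.40.

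At 6 h the smallest p in each list mostly belonged to values below 0. The J-domain genes DNAJA4, DNAJB5 and DNAJA2 had -1.04 ± 0.76, -0.75 ± 0.50 and -0.40 ± 0.24, the exchange factor BAG2 -0.46 ± 0.29 and the CDC37 relative CDC37L1 -0.55 ± 0.34. DNAJA4 had pair values of 0.61, -3.55 and -0.19, so its mean rested on replicate 2. DNAJB5 signals were 56.0, 183 and 62.1 on the untreated arrays, 36.1, 65.1 and 56.6 at 6 h and 83.4 and 49.0 at 12 h, with untreated replicate 2 far above the others. DNAJA2 read 424, 444 and 441 on the untreated arrays, 308, 302 and 385 at 6 h and 287 and 385 at 12 h, and every treated array lay below every untreated one at both times, although limma gave it an adjusted p of 1.00. PPID, a cyclophilin of HSP90 complexes, had 0.37 ± 0.26. HSPB7, HSBP1 (a heat shock factor binding protein), CCT6B and PFDN1 had -0.27 ± 0.30, -0.14 ± 0.28, -0.41 ± 0.56 and -0.18 ± 0.33. For 12 h against 6 h, the values were 0.56 ± 0.34 for DNAJB6, 0.58 ± 0.37 for CLU, -0.53 ± 0.31 for HSPA9, 0.39 ± 0.25 for BAG6, 0.58 ± 0.44 for TTC4, 0.38 ± 0.30 for TRAP1, 0.66 ± 0.33 for HSPB7, 0.28 ± 0.46 for HSPB3, 0.27 ± 0.37 for PFDN1 and 0.14 ± 0.25 for PFDN4. All of these had an adjusted p of 1.00 in limma.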

How the data were processed

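Per the submitters' processing notes, the authors made the deposited intensity values with MAS5, which summarises each probe set into 1 signal and scales every array. Its version and settings are not given in the sources used here. Of 54675 probe sets, 62 were controls, and the platform annotation gave 1 gene for 41091 of the rest. The brightest probe set stood for each of 19775 genes, signals under the 10th percentile (2.39) were set to it before log2, which understates folds of dim genes, and genes with a mean log2 signal above 4.22 (12063) were tested. limma 3.58.1 in R 4.3.3 fitted the 3 groups together (lmFit, eBayes with a variance trend). Two-sided p-values were adjusted by Benjamini-Hochberg, with a threshold of 0.05, and the fit was checked on simulated data. The number of arrays, 8, limits precision.

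The replicate numbers come from the labels. Deviations from group means correlated between same-numbered arrays at 0.49 to 0.64 for replicates 2 and 3, and at 0.11 to 0.16 for replicate 1. Between other arrays the values ran from -0.58 to 0.33, and the 0.33 was between 12 h replicate 1 and untreated replicate 2. Pairing by number was thus seen for replicates 2 and 3 and was not shown for replicate 1. With 2 arrays at 12 h, their deviations mirror each other, so the values of these arrays are not separate. Alternatives covered the replicate block, normalization, floor, filter, probe-set choice and left-out arrays. Genes with values on every array were a fixed set, extended by the members with the smallest p in each direction. Members, lists and tests were chosen with earlier results of these data known. Promoters are RefSeq sequences of build GRCh38.p14. Whether a 12 h replicate 2 exists is not known, and none was analysed here.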

Additional observations from a re-analysis of the deposited data

How the results depend on the processing

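Over all 27 genes, 3 comparisons and 20 alternatives, 0 of 1614 differences passed the limma threshold (smallest adjusted p 0.751), and 204 had the opposite sign to the value reported. The floor, pseudocount, filter, variance-trend and 2-group alternatives turned no sign. Under the replicate block (a paired fit), which changed no call, the 12 h difference was -0.56 for HSPB1, -0.000469 for CCT5 and 0.084 for HSF1. Under quantile normalization it was -0.080 for HSPD1 and -0.050 for CCT2. Median centring shifted the median of all genes by 0.58 at 12 h (to 0.66) and by 0.59 for 12 h against 6 h (to 0.65). It gave medians of 0.83 (HSF1-inducible) and 0.74 (CCT) at 12 h, 0.73 and 0.70 for 12 h against 6 h, and 0.11 for HSF1 at 12 h. The mean of a gene's probe sets gave -0.042 for HSP90AB1 and 0.59 for HSF1 at 6 h. Without both arrays numbered 2, with or without the block, HSF1 was 0.21 at 6 h and 0.20 at 12 h, and at 12 h HSPB1 was -0.65, HSPD1 -0.049 and CCT2 -0.038. Leaving out 1 array at a time, the 6 h differences ranged from -1.05 to 0.60 for HSPB1, -0.00267 to 0.38 for CCT5, -0.47 to 0.65 for HSF1, -0.18 to 0.19 for CCT2, -0.046 to 0.47 for BAG3 and -0.086 to 0.16 for HSP90AB1. BAG3 was below 0 at 6 h only without 6 h replicate 1, and HSP90AB1 only without 6 h replicate 3. The 12 h differences ranged from -0.65 to 1.10 for HSPB1, -0.049 to 0.25 for HSPD1, -0.039 to 0.30 for CCT2 and -0.82 to 0.20 for HSF1. The HSF1-inducible median minus the CCT median at 6 h ranged from -0.067 (without 6 h replicate 1) to 0.24, at 12 h from -0.0095 (without untreated replicate 3) to 0.18, and for 12 h against 6 h from -0.043 (without 6 h replicate 3) to 0.15. The 12 h differences ranged from 0.30 to 0.76 for DNAJB1, 0.28 to 0.71 for HSPH1 and 0.42 to 0.77 for BAG3. The causes were not tested. With 2 arrays at 12 h, a sample left out leaves a lone array assumed to vary like the other groups. Dim probe sets (HSPB1, HSF1, HSPA6, CRYAB) are limited by low signal. None of the values of their brightest probe sets was floored, since the lowest were 11.7, 27.9, 10.7 and 6.99, above the floor of 2.39. The other HSPA6 probe set read 2.10 on untreated replicate 1, under that floor.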

Other observations

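The second-brightest and the brightest probe sets of a gene read different stretches of its transcript, and their ratio is a check on the array rather than on the gene. Among the 18 genes with more than 1 passing probe set, this log2 ratio was lowest on 12 h replicate 1 for 8 genes, against 0 to 4 genes on each of the other 7 arrays. The median deviation from the gene's typical ratio was -0.094 in 12 h replicate 1 and 0.048 in 12 h replicate 3. It lay between -0.049 and 0.063 in the untreated samples and between -0.057 and 0.041 in the 6 h samples. Some second probe sets were dim (mean signal 50.3 for CCT8, 39.6 for HSPB8 and 68.4 for CCT4), so their ratios are a weak check. For HSPH1 the ratio was -2.56 on 12 h replicate 1, and the remaining 7 arrays gave -1.95 to -1.17. For HSP90AB1 it was -0.64, against -0.23 to 0.18. For STIP1 it was -1.45, against -1.22 to -0.59. Other genes went the other way: on 12 h replicate 1 the ratio was the highest of all arrays for CCT6A (-0.36, against -1.23 to -0.67) and DNAJA1 (-1.03, against -1.40 to -1.05). The actin 3′ to 5′ ratio was also highest on 12 h replicate 1, at 2.29, while its GAPDH ratio was 1.04. Whether RNA quality takes part in these values was not tested.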
